A study of Mus musculus with 24 samples.

Results

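The collagen genes of the mouse were followed through differentiation of a female embryonic stem cell line with and without the histone methyltransferase G9a. Every row of the gene table whose symbol has the form Col, a number, a and a number was taken, which gave 44 of 24016 genes, chosen by name and not by their values. All cells came from the 16.7 Tsix +/TST line, in which Tsix, the antisense partner of Xist, carries the TST allele on 1 of its copies, and whose reads can in part be assigned to a mus or a cas allele. The wild-type (WT) group is this parental line, and the G9a KO group was derived from it by deleting G9a, so the Tsix allele is shared by both. Cells were taken at day 0, undifferentiated, or at day 10, after LIF was withdrawn and the cells had spent 4 days in suspension and 6 days attached to gelatin-coated plates. Each of the 4 groups had 3 libraries of ribosomal-RNA-depleted total RNA, and 1 H3K9ac sample. How many clones the G9a KO group represents is not given in the sources used here, nor whether the 3 libraries came from separate cultures, so p-values measure the spread between these libraries, which may be technical.

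Collagens are secreted proteins wound from 3 chains into a triple helix. Type IV collagen builds the sheet of the basement membrane that lies under epithelia and is made early by the endoderm-like cells that arise from stem cells, while the fibrillar types I, II, III, V and XI form the load-bearing fibrils of connective tissue, bone and cartilage. FACIT collagens sit on the surface of fibrils, type VI forms beaded filaments, and type XVIII is a multiplexin of basement membranes whose end fragment is endostatin. The 44 genes were 11 fibrillar, 9 FACIT, 6 basement membrane network (Col4a1 to Col4a6), 6 beaded filament, 4 transmembrane, 3 short chain network, 2 multiplexin, 1 anchoring fibril and 2 other genes. All 44 passed the filter on low values, a value above 1 in at least 3 of the 12 libraries, so none was left out.

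The gene values are read counts that the authors scaled to the same total in every library, called scaled reads here. The libraries held 2081129 to 4220140 reads, except WT day 0 replicate 3 and G9a KO day 0 replicates 2 and 3, which held 21087157 to 30527844 reads and little of the ribosomal precursor Rn45s (0.115% to 0.129% against 14.8% to 25.1% elsewhere). Ehmt2, which encodes G9a, was at 986.77, 1102.26 and 1375.06 scaled reads in WT day 0 and at 557.31, 440.92 and 375.39 in G9a KO day 0. At day 10 it was at 718.57 to 1358.93 in WT and 499.82 to 758.44 in G9a KO, so the deletion did not empty the gene of reads, and which exons were removed is not given in the sources used here. Replicate 1 of both day 0 groups stood apart in fibroblast genes: the summed level of 16 fibroblast markers was 4729 in WT day 0 replicate 1 against 2175 and 1497, and 3160 in G9a KO day 0 replicate 1 against 1709 and 1707. Of the 16, 12 were above both other libraries in WT day 0 replicate 1, all but Mmp2, Pdgfrb, Mfap5 and Lum. In G9a KO day 0 replicate 1 it was 15, all but Mmp2. None of the 16 markers is a collagen, and Lox and Mmp2 are also in lists used below. Genes of the Y chromosome, which female cells lack, summed over 4 markers to 201.58 in WT day 0 replicate 1 and 80.94 in G9a KO day 0 replicate 1, against at most 19.83 in any other library. All 4 were above both other libraries in WT day 0 replicate 1. In G9a KO day 0 replicate 1 this held for 2 of the 4, Kdm5d (31.13) and Uty (46.70). Ddx3y (3.11) and Eif2s3y (0) were below replicates 2 and 3 there. G9a KO day 0 replicate 1 and WT day 10 replicate 3 also held more reads in genes of the 1431 olfactory and vomeronasal receptors, 1.318 and 1.475 scaled reads per kb of gene span against 0.040 to 0.487 elsewhere. The part that fibroblast RNA and these background reads have in each result was not tested, and the day 10 changes, the comparisons between the lines and the gene lists are also given without replicate 1 of both day 0 groups. Leaving those 2 libraries out leaves G9a KO day 0 with its 2 deep libraries, whereas all G9a KO day 10 libraries are shallow, so in G9a KO the day and the type of library cannot then be told apart. The stem cell label held at day 0, where 6 pluripotency markers summed to 17273 to 33645 scaled reads, against 2570 to 9608 at day 10.

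**Figure D1:**
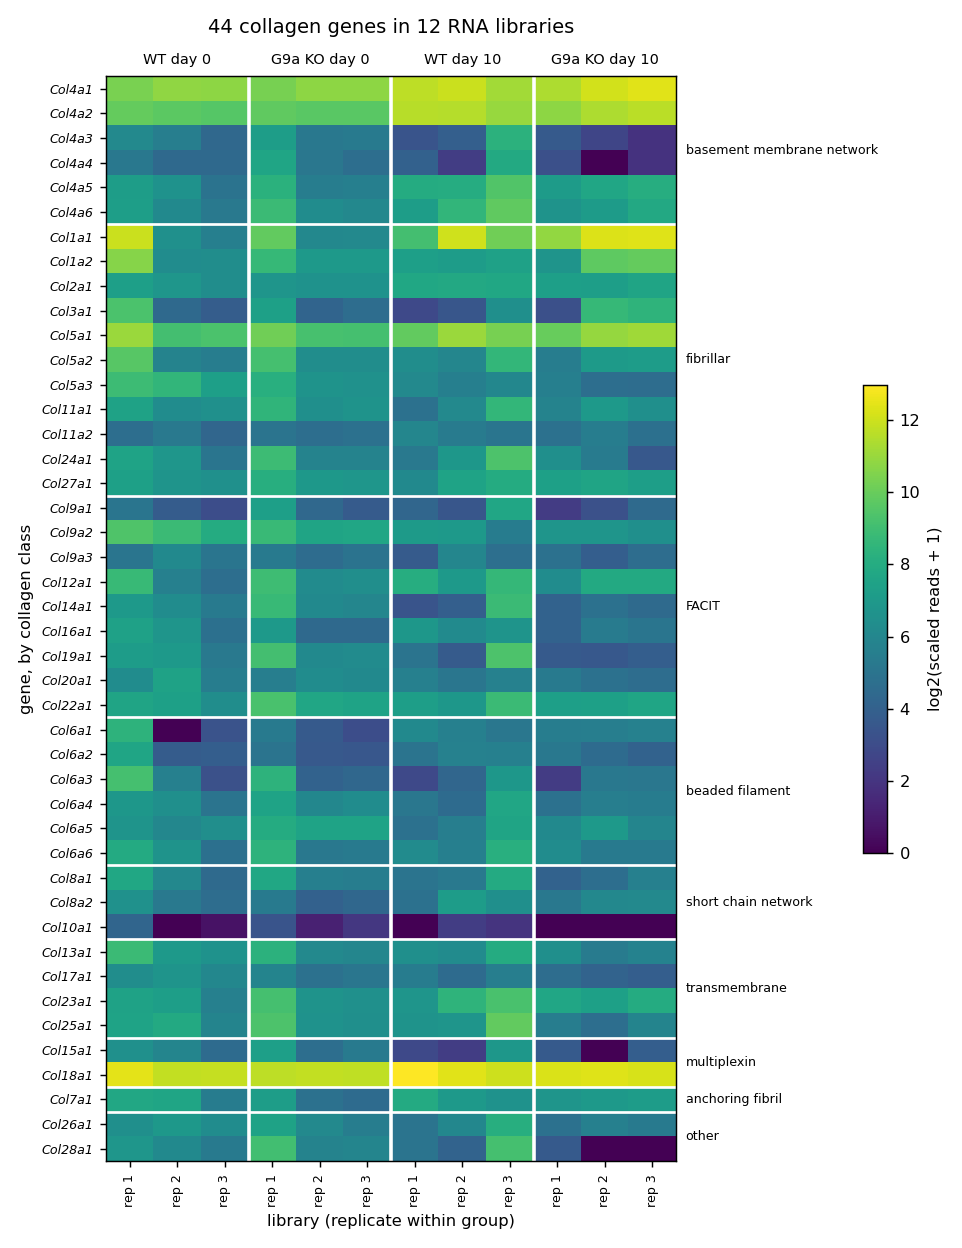
Level of the 44 collagen genes, as log2(scaled reads + 1) by colour, in the 12 libraries (columns, 3 a group), with genes in rows by class. Col18a1, Col4a1 and Col4a2 are bright in every library, whereas Col1a1 is bright in replicate 1 of both day 0 groups and at day 10.

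Undifferentiated stem cells already had RNA of Col18a1, Col4a1, Col4a2 and Col5a1. Col18a1 took the most reads of any collagen gene in every library but G9a KO day 10 replicate 3, where Col4a1 did. Col18a1 was at 4298 ± 1188 scaled reads in WT day 0, 3468 ± 103 in G9a KO day 0, 5883 ± 2022 in WT day 10 and 4923 ± 224 in G9a KO day 10 (mean ± SD, n = 3 each). Its change from day 0 to day 10 did not pass the test in either line, which was limma on log2(scaled reads + 1) over all genes, with a Benjamini-Hochberg adjusted p under 0.05. Per kb of gene span, Col1a1 (15.6 kb) stood above Col18a1 (114.4 kb) in G9a KO day 10, at a mean of 261.2 against 43.0 scaled reads per kb, with introns counted in the span. At the other end, Col10a1, a short-chain collagen of growth plate cartilage, was at 0 to 17.68 scaled reads, and it was at 0 in all 3 G9a KO day 10 libraries.

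Col4a1 and Col4a2 encode the 2 chains of the common type IV collagen trimer and lie head to head on chromosome 8. In the gene table (mm9), Col4a1 spans chr8:11198424-11312826 on the minus strand and Col4a2 chr8:11312830-11449287 on the plus strand, so that 3 bases separate their starts. Their promoter windows, 250 bases before to 50 after the start in RefSeq (GRCm38.p6), share 78 bases: chr8:11312777-11313076 on the minus strand for Col4a1 and chr8:11312555-11312854 on the plus strand for Col4a2. They are shown because the 2 genes share this start and Col4a2 rose in both lines. Those of Col5a1 (chr2:27886175-27886474, plus strand) and Col1a2 (chr6:4505368-4505667, plus strand) are shown for comparison, as fibrillar genes with a listed acetylation peak described below. Each is written 5′ to 3′ on the gene's own strand, and capitals mark the letters CCAAT (the CCAAT box), GGGCGG (the GC box) or TATAAA (the TATA box) on either strand. No 2 of these matches share a letter in these windows.
Col4a1: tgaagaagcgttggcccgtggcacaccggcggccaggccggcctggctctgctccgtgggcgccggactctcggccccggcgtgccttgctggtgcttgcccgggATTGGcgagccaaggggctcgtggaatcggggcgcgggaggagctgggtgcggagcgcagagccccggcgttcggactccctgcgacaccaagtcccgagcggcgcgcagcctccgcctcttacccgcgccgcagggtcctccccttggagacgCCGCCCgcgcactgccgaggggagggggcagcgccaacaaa
Col4a2: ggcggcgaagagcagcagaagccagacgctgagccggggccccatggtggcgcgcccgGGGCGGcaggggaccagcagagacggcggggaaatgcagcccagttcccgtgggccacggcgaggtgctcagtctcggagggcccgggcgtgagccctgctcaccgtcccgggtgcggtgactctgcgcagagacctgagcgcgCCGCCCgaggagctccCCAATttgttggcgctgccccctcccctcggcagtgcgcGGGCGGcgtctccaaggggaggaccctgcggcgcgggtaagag
Col5a1: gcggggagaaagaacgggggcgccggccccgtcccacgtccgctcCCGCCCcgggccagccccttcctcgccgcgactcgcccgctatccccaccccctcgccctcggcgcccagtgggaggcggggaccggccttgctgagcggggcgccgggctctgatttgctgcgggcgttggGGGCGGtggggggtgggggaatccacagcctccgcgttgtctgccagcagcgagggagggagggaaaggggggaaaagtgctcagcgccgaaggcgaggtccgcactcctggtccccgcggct
Col1a2: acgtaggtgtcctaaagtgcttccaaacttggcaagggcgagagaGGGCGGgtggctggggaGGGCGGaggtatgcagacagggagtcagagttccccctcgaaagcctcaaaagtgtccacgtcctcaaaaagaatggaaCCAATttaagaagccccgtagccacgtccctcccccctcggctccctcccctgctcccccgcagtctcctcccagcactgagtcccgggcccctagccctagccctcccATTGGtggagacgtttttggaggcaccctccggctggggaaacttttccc
None of the 4 windows held TATAAA, and the GC content was 74.0%, 73.7%, 75.0% and 61.0% in that order, against a median of 52.7% over all promoters. Windows were found for 35 of the 44 genes, 38 windows in all. GGGCGG was present in 23 of these 38 (60.5%) and in 35.7% of all 32851 windows, CCAAT in 34.2% and 37.4%, and TATAAA in 13.2% and 13.6%. A match is a description of the letters and not of a bound site.

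Col4a2 rose from day 0 to day 10 in both lines, and Col4a1 rose in the G9a KO line. In bulk RNA, more cells of a type and more RNA per cell cannot be told apart. Col4a2 was at 954.93, 839.22 and 766.80 scaled reads in WT day 0 and at 3112.61, 2940.23 and 2000.50 in WT day 10. All 3 day 10 libraries were above all 3 of day 0, and the log2 change was 1.63 (SE 0.28, limma adjusted p = 0.0043). In G9a KO it was at 893.56, 810.20 and 816.29 at day 0 and at 1729.54, 2672.32 and 3176.71 at day 10, again without overlap. The log2 change there was 1.54 (SE 0.28, limma adjusted p = 0.0084). Among all 20624 genes tested, 2.02% rose in WT and 2.43% in G9a KO. Col4a1 was at 1326.30, 1841.28 and 1745.08 in WT day 0, and at 3263.92, 3971.78 and 2356.92 in WT day 10. The lowest day 10 library thus stood above the highest of day 0, while the log2 change of 0.95 (SE 0.31) missed the threshold (limma adjusted p = 0.11), though it passed in edgeR (adjusted p = 0.0463) and DESeq2 (adjusted p = 8.0e-04). In G9a KO, Col4a1 was at 1273.40, 1734.05 and 1736.43 at day 0 and at 2645.87, 4454.78 and 5388.00 at day 10, a log2 change of 1.35 (SE 0.31, limma adjusted p = 0.023). Replicate 1 of the day 0 groups was not high in these 2 genes: Col4a1 was at 0.740 and 0.734 times the mean of the other 2 libraries in WT and G9a KO, and Col4a2 at 1.19 and 1.10 times. Without these libraries the Col4a2 changes were 1.71 and 1.59 (limma adjusted p = 0.003 and 0.0041) and the Col4a1 changes 0.80 and 1.20 (limma adjusted p = 0.12 and 0.019). The Col4a2 call in G9a KO was lost without G9a KO day 10 replicate 3 (log2 change 1.36, limma adjusted p = 0.0623), and the Col4a1 call without any 1 of G9a KO day 0 replicates 2 and 3 or day 10 replicates 2 and 3 (limma adjusted p = 0.0612 to 0.11).

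The other 4 type IV genes were lower and did not pass limma's test in either line over all libraries. DESeq2 called Col4a5 and Col4a6 in WT, as higher, and Col4a3 and Col4a4 in G9a KO, as lower. Col4a5 and Col4a6, neighbours on the X chromosome that encode chains of the epithelial and smooth muscle basement membrane, were both higher in all 3 WT day 10 libraries than in WT day 0 replicates 2 and 3. Col4a5 was at 148.55, 96.03 and 30.17 scaled reads in WT day 0 and 250.12, 265.61 and 701.33 in WT day 10, and it was at 314.46, 44.94 and 48.21 in G9a KO day 0 and 138.84, 202.61 and 272.37 in G9a KO day 10. Col4a6 was at 155.62, 70.98 and 37.57 in WT day 0, at 463.90, 78.48 and 65.52 in G9a KO day 0, at 151.31, 376.79 and 885.28 in WT day 10, and at 99.17, 136.90 and 226.52 in G9a KO day 10. The high G9a KO day 0 value is that of replicate 1 and the high WT day 10 value that of replicate 3, in both genes. Without replicate 1 of both day 0 groups, Col4a5 rose by a log2 change of 2.71 (SE 0.55, limma adjusted p = 0.0087) in WT and 2.06 (SE 0.55, limma adjusted p = 0.023) in G9a KO, and Col4a6 by 2.82 (SE 0.62, limma adjusted p = 0.013) in WT. Over all 12 libraries these were 2.23, 1.15 and 2.29 (limma adjusted p = 0.11, 0.27 and 0.12). The Col4a5 change in G9a KO turned to -0.41 when sequencing depth, deep or shallow, was a term of the fit. Col4a3 and Col4a4, the chains of the kidney and lung basement membrane, are a second head-to-head pair. Col4a3 was at 67.20, 45.93 and 19.92 in WT day 0, at 149.44, 35.17 and 37.91 in G9a KO day 0, at 9.26, 14.41 and 319.05 in WT day 10, and at 11.90, 5.48 and 2.70 in G9a KO day 10. Col4a4 was at 35.37, 20.88 and 20.49 in WT day 0, at 199.26, 34.84 and 25.14 in G9a KO day 0, at 15.44, 4.12 and 235.69 in WT day 10, and at 7.93, 0 and 2.70 in G9a KO day 10. In both of these genes 2 of the 3 WT day 10 libraries were below every WT day 0 library and replicate 3 was above them all. In G9a KO all 3 day 10 libraries were below all 3 of day 0 in both genes.

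**Figure D2:**
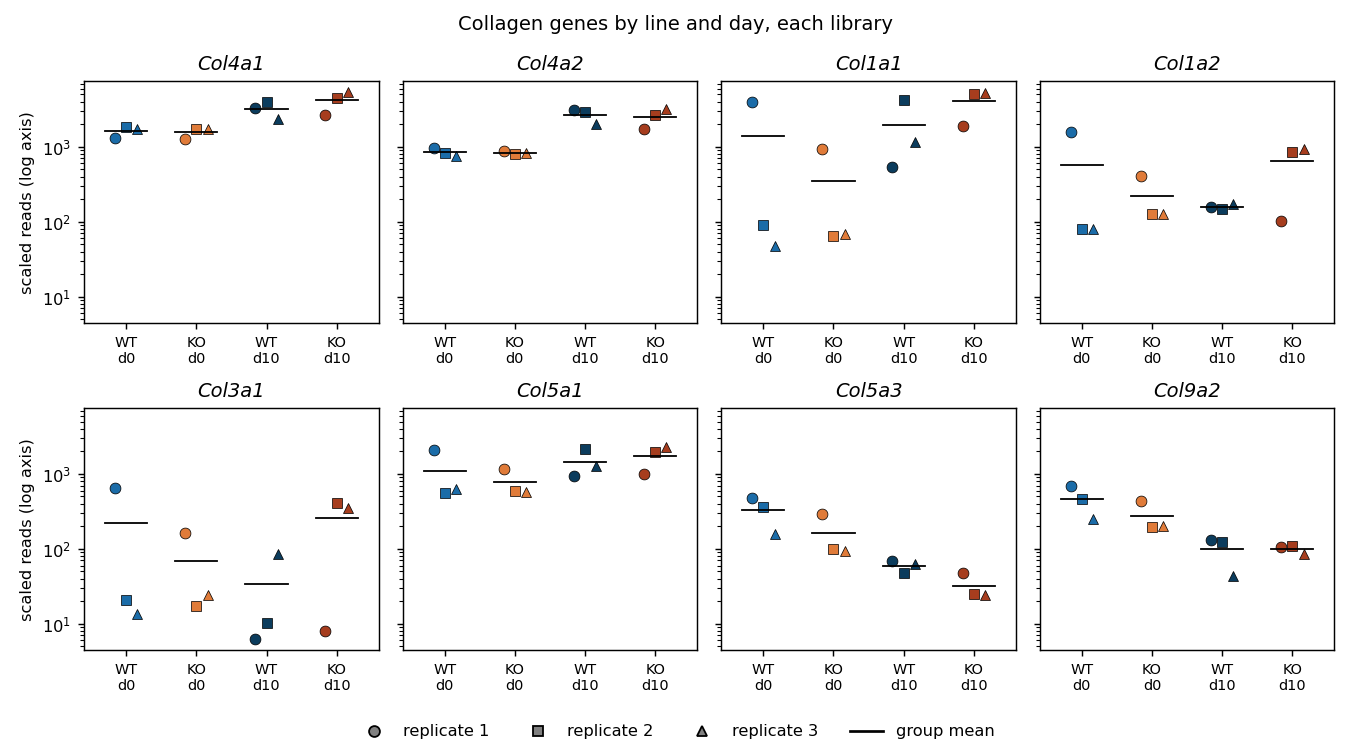
Scaled reads (log axis) of 8 collagen genes in each library, by line and day, with marker shapes for replicates 1 to 3 and a bar at the group mean. Col4a1 and Col4a2 stand higher at day 10 in all 6 libraries, while Col1a1 spreads from 47.82 to 3996.58 within WT day 0.

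Among the fibrillar genes, Col1a1 changed most between days once replicate 1 of both day 0 groups was set aside. Its level in that replicate was within the range of day 10 in WT and below that range in G9a KO. Col1a1, the major chain of type I collagen of bone and skin, was at 3996.58, 91.86 and 47.82 scaled reads in WT day 0 and at 924.69, 64.80 and 68.40 in G9a KO day 0. The WT day 10 libraries were at 543.47, 4161.20 and 1164.09 and those of G9a KO day 10 at 1880.27, 5032.51 and 5301.70. Replicate 1 was 57.2 times the mean of the other 2 in WT day 0 and 13.9 times in G9a KO day 0, and the groups therefore overlapped in WT but not in G9a KO. Over all libraries the log2 change was 2.40 (SE 1.37, limma adjusted p = 0.42) in WT and 4.51 (SE 1.37, limma adjusted p = 0.054) in G9a KO. Without replicate 1 of both day 0 groups it was 4.36 (SE 0.68, limma adjusted p = 0.0019) and 5.77 (SE 0.68, limma adjusted p = 0.00042), the latter with day 0 from deep libraries alone. With sequencing depth as a term over all 12 libraries the changes were 1.16 and 2.04 (limma adjusted p = 0.68 and 0.32).

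Col1a2, the partner chain of type I, was at 1570.34, 79.33 and 80.55 scaled reads in WT day 0, at 410.97, 126.67 and 126.50 in G9a KO day 0, at 157.48, 146.19 and 172.46 in WT day 10, and at 103.14, 865.22 and 949.24 in G9a KO day 10. G9a KO day 10 replicates 2 and 3 were thus above all WT day 10 libraries and replicate 1 below them. Col3a1, the chain of type III collagen of vessels and skin, followed the same split in G9a KO day 10, at 7.93 in replicate 1 and 407.97 and 350.57 in replicates 2 and 3. It was at 640.16, 20.88 and 13.38 in WT day 0, at 165.01, 17.26 and 23.90 in G9a KO day 0, and at 6.18, 10.29 and 86.23 in WT day 10. Neither gene passed limma's test between days, with or without replicate 1 of the day 0 groups. The summed level of 6 smooth muscle markers moved with that split, at 1682 in G9a KO day 10 replicate 1 and 5523 and 4822 in replicates 2 and 3, against 1763, 1297 and 1141 in WT day 10. The part of smooth muscle or fibroblast cells in it was not tested.

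Col5a1, a chain of type V collagen that starts type I fibrils, was at 2076.10, 551.13 and 626.47 scaled reads in WT day 0 and at 1158.20, 592.99 and 568.23 in G9a KO day 0. It was at 947.99, 2128.99 and 1281.93 in WT day 10 and at 991.71, 1941.27 and 2278.71 in G9a KO day 10. Every day 10 library was above the day 0 libraries other than replicate 1. Without that replicate the log2 change was 1.22 (SE 0.38, limma adjusted p = 0.057) in WT and 1.49 (SE 0.38, limma adjusted p = 0.018) in G9a KO, against 0.62 and 1.16 over all libraries (limma adjusted p = 0.61 and 0.13). Col5a2, its partner chain, was at 778.10, 54.28 and 43.83 in WT day 0, at 560.42, 80.11 and 82.00 in G9a KO day 0, at 80.29, 61.77 and 385.15 in WT day 10, and at 43.64, 134.16 and 145.62 in G9a KO day 10, and did not pass the test.

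Col5a3, the third type V chain, fell in both lines. It was at 477.47, 367.42 and 157.69 scaled reads in WT day 0 and 67.93, 47.36 and 63.23 in WT day 10, a log2 change of -2.34 (SE 0.54, limma adjusted p = 0.023). In G9a KO it was at 295.78, 99.32 and 93.95 at day 0 and 47.60, 24.64 and 24.27 at day 10, a log2 change of -2.16 (SE 0.54, limma adjusted p = 0.031). In both lines every day 10 library was below every day 0 library. The G9a KO call was lost without any 1 of its 6 libraries (limma adjusted p = 0.0511 to 0.115), and the WT call without WT day 0 replicate 1 or 2 or WT day 10 replicate 1 or 2 (limma adjusted p = 0.0555 to 0.0995). Both calls were also lost with scaling by relative log expression (limma adjusted p = 0.0573 and 0.0669) and without the filter on low values (0.0538 and 0.0624), and the G9a KO call in edgeR (adjusted p = 0.0533). Col2a1, the type II chain of cartilage, was at 159.16, 112.73 and 80.55 in WT day 0 and 213.07, 228.55 and 209.82 in WT day 10, without overlap, and the log2 change of 0.93 missed the threshold over all libraries (limma adjusted p = 0.15). It passed without replicate 1 of both day 0 groups (1.18, SE 0.32, limma adjusted p = 0.034), without the filter (limma adjusted p = 0.0471) and in DESeq2 (adjusted p = 0.020). In G9a KO it was at 108.97, 99.00 and 98.07 at day 0 and at 158.67, 156.07 and 191.47 at day 10, also without overlap, and the log2 change of 0.72 also missed the threshold (limma adjusted p = 0.15). It passed there in DESeq2 (adjusted p = 0.0261), and without replicate 1 of both day 0 groups in edgeR (adjusted p = 0.0373) and with relative log expression scaling (limma adjusted p = 0.0362).

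Of the other classes, Col9a2 fell in WT and Col28a1 in G9a KO. Col9a2, a chain of the FACIT type IX of cartilage, was at 689.68, 467.63 and 248.77 scaled reads in WT day 0 and 132.78, 123.54 and 43.11 in WT day 10, a log2 change of -2.26 (SE 0.50, limma adjusted p = 0.018). The call was lost without WT day 0 replicate 1 or replicate 2 (limma adjusted p = 0.0689 and 0.0637), without the filter (0.0555) and with only the 2 groups compared in the fit (0.0593). In G9a KO it was at 438.99, 193.11 and 203.15 at day 0 and 107.10, 109.52 and 86.29 at day 10, where the log2 change of -1.35 did not pass (limma adjusted p = 0.089), though it did with only those 2 groups in the fit (0.0408). Col28a1 was at 532.40, 55.03 and 58.92 in G9a KO day 0 and at 11.90, 0 and 0 in G9a KO day 10, and at 113.18, 70.98 and 38.43 in WT day 0 and 30.88, 16.47 and 563.36 in WT day 10. Its fitted log2 change in G9a KO was -5.69 (SE 1.31, limma adjusted p = 0.023), a value that depends on the pseudocount where libraries are at 0. The call was lost without G9a KO day 0 replicate 3 or day 10 replicate 2 or 3 (limma adjusted p = 0.0519, 0.0916 and 0.102), with a pseudocount of 5 (0.0540), without the filter (0.0758) and in edgeR (adjusted p = 0.0673). Without replicate 1 of both day 0 groups, 3 more genes rose: Col12a1, a FACIT of tendon, and Col6a1, a type VI chain, in WT (log2 change 2.71 and 3.99, limma adjusted p = 0.011 and 0.017), and Col7a1, the anchoring fibril collagen of skin, in G9a KO (2.30, limma adjusted p = 0.021). Over all libraries these were 1.53, 1.74 and 1.45 (limma adjusted p = 0.45, 0.62 and 0.18). Col12a1 was at 427.95, 50.10 and 25.05 in WT day 0 and 271.74, 125.60 and 396.65 in WT day 10, and Col7a1 at 149.44, 27.35 and 22.66 in G9a KO day 0 and 107.10, 128.69 and 145.62 in G9a KO day 10, both high in the replicate set aside. Col6a1 was at 339.53, 0 and 9.11 in WT day 0 and 71.02, 49.42 and 34.49 in WT day 10, and its change turned to -0.22 without WT day 0 replicate 2, to -1.15 in edgeR and to -1.04 in DESeq2. The remaining 24 members, spread over 7 classes, were at 0 to 345.91 scaled reads outside WT and G9a KO day 0 replicate 1 and WT day 10 replicate 3, and at up to 934.14 in those 3 libraries. In 19 of these 24 the highest of the 12 libraries was 1 of those 3, and limma over all 12 libraries called none of the 24 in any comparison. Other fits called 10 of them from day 0 to day 10, all 10 as lower. Col25a1 passed in G9a KO in DESeq2. Col14a1, Col15a1, Col19a1, Col25a1 and Col6a5 passed in G9a KO without WT day 10 replicate 3, and Col14a1 in both lines without the 3 libraries. Col13a1, Col16a1, Col22a1, Col6a6 and Col8a1 passed in G9a KO with depth as a term.

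Counted over the whole family, 1 collagen gene rose and 2 fell from day 0 to day 10 in WT, and 2 rose and 2 fell in G9a KO. In WT 2.40% of all 20624 genes fell besides the 2.02% that rose, 4.42% in all, and in G9a KO 6.46% fell and 8.89% changed. The median log2 change over the 44 genes was 0.15 in WT, with 24 above 0, against -0.20 over all genes, and -0.72 in G9a KO, with 18 above 0, against -0.68. In WT the collagen median turned with single libraries. It was 0.73 with 34 above 0 without WT day 0 replicate 1, -0.39 with 17 without WT day 0 replicate 3 and -0.48 with 16 without WT day 10 replicate 3. In G9a KO it was -0.05 with 22 above 0 without G9a KO day 0 replicate 1. Scaling by relative log expression moved the all-gene medians to -0.01 and -0.41 and the collagen medians to 0.35 and -0.43. DESeq2 called 7 collagen genes in WT and 8 in G9a KO, against 12.9% and 21.2% of 14884 genes. Without replicate 1 of both day 0 groups 7 rose and 2 fell in WT, where 3.95% of all 20178 genes rose and 6.80% fell (10.7% in all), and 6 rose and 2 fell in G9a KO, where 4.47% rose and 13.3% fell (17.7% in all). By class, the 6 type IV genes then had a median log2 change of 1.26 in WT with all 6 above 0 and of 1.11 in G9a KO with 4 above 0. Col4a3 and Col4a4 were at 0.24 and 0.32 in WT, and at -1.32 and -1.24 when WT day 10 replicate 3 was left out too. In G9a KO they were at -2.47 and -3.25. The 11 fibrillar genes had a median of 0.98 in WT with 10 above 0 and 0.53 in G9a KO with 8 above 0. All 3 day 10 libraries stood above all 3 day 0 libraries in 4 collagen genes in WT and 6 in G9a KO, against 6.63% and 8.93% of all genes, and below them in 3 and 14, against 11.8% and 36.5%. The difference between the 2 lines in the day 10 change was not significant for any collagen gene (0 of 44 called, 0% of all genes; 1795 of 20624 genes and 3 collagen genes had an unadjusted p under 0.05, and DESeq2 called Col28a1 and 0.497% of all genes).

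**Figure D3:**
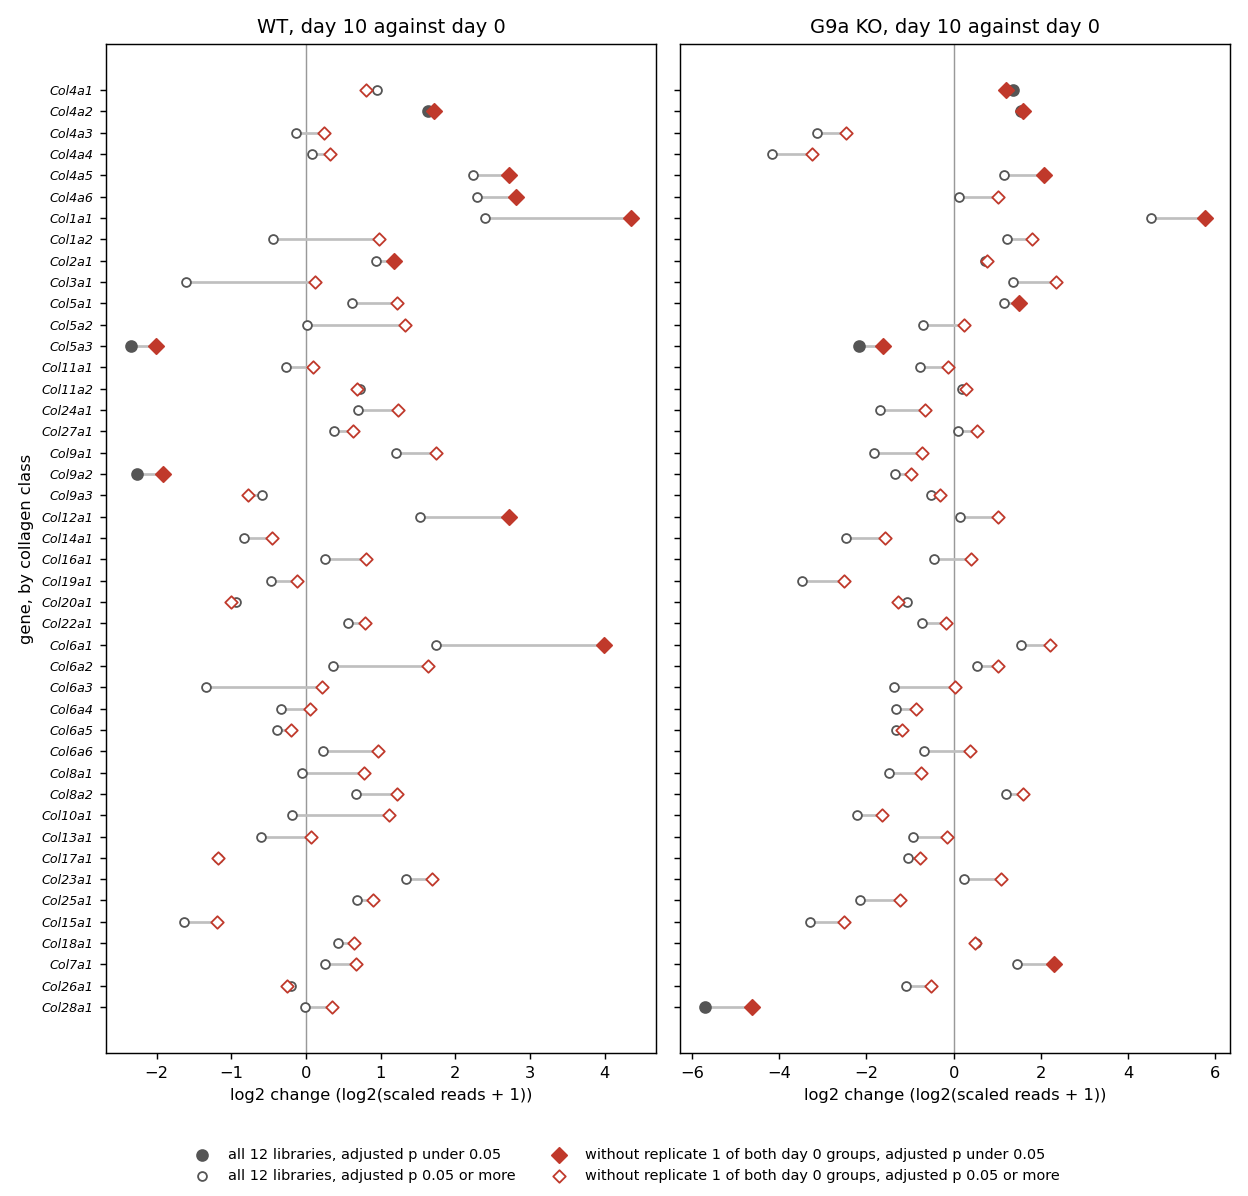
Log2 change from day 0 to day 10 of each collagen gene in WT (left) and G9a KO (right), on the log2(scaled reads + 1) scale, over all 12 libraries (grey) and without replicate 1 of both day 0 groups (red). Filled symbols have an adjusted p under 0.05, and Col1a1 moves from 2.40 to 4.36 in WT.

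Replicate 1 of the day 0 groups was high in most of the family and not only in the genes above. It was the highest of the 3 libraries in 37 of 44 collagen genes in WT day 0 and in 41 of 44 in G9a KO day 0, against 32.5% and 50.6% of all genes tested. Long genes in general showed much of this. Among genes of 100 kb and longer it was 23 and 24 of 26 collagen genes, against 74.7% and 83.6% of all. Among shorter genes it was 14 and 17 of 18, against 27.2% and 46.4%. In WT day 0 its ratio to the mean of the other 2 libraries ranged from 0.621 for Col9a3 to 74.5 for Col6a1. The genes below 1 in both lines were Col4a1 and Col20a1 (0.707 in WT and 0.633 in G9a KO).

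WT day 10 replicate 3 was high in the genes with a long span. Among the 26 collagen genes of 100 kb and longer it was the highest of the 3 WT day 10 libraries in 22, and among the 18 shorter genes in 6. Over all genes tested these shares were 88.9% and 47.5%. The 4 genes of over 100 kb with the most reads, Col4a1, Col4a2, Col5a1 and Col18a1, were not highest in replicate 3, at 2356.92, 2000.50, 1281.93 and 4153.34 scaled reads. In the gene table the length equals the span of the gene in 99.3% of genes, and whether reads in introns were counted is not given in the sources used here. The part of background reads in the long genes was not tested. Without this library and replicate 1 of both day 0 groups, 9 collagen genes rose and 3 fell in WT (4.64% and 10.7% of all 19735 genes, 15.3% in all), and 6 rose and 8 fell in G9a KO (6.61% and 29.4%, 36.0% in all).

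**Figure D4:**
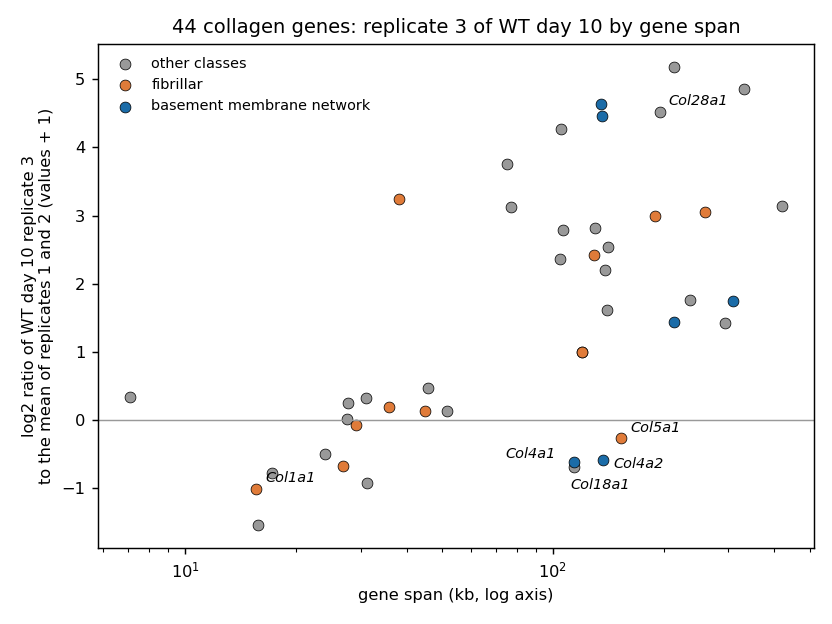
Log2 ratio of WT day 10 replicate 3 to the mean of replicates 1 and 2 (values + 1) for the 44 collagen genes, against gene span in kb (log axis), coloured by class. The genes with ratios above 1 are nearly all long, while Col4a1, Col4a2, Col5a1 and Col18a1 lie below 0.

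Between the 2 lines, no collagen gene passed the test at either day. At day 0, 0 of 44 were called and 0% of all 20624 genes, with 1 collagen gene and 788 genes at an unadjusted p under 0.05, and DESeq2 called 0 collagen genes and 0.114% of all. All 3 G9a KO day 0 libraries were above all 3 of WT in Col6a5 (5.50% of all genes) and below them in Col17a1 (4.98%). At day 10, limma and edgeR called 0 of 44 and limma 0% of all genes, with 5 collagen genes and 2462 genes at an unadjusted p under 0.05, and DESeq2 called 1, Col28a1, against 3.16% of all genes. Leaving out replicate 1 of both day 0 groups, limma also called 0 of 44 at each day, and 0% of all 20178 genes at day 0 and 0.00496% at day 10. For Col4a1 the log2 difference of G9a KO from WT at day 10 was 0.35 (SE 0.31, limma adjusted p = 0.66), and for Col4a2 it was -0.11 (SE 0.28, limma adjusted p = 0.90), which turned to 0.14 without G9a KO day 10 replicate 1 and to 0.01 without WT day 10 replicate 1. Of the differences at day 10 the largest was that of Col28a1, at -4.86 (SE 1.31, limma adjusted p = 0.21). Col4a4 was at -3.08 (SE 1.27), Col4a3 at -2.45 (SE 1.11), Col25a1 at -2.44 (SE 0.89), Col19a1 at -2.32 (SE 1.16) and Col24a1 at -2.02 (SE 1.09), with limma adjusted p of 0.30 to 0.46. In all 6 of these genes WT day 10 replicate 3 was the highest library of its group. Col16a1, a FACIT collagen, was at 114.25, 74.12 and 103.47 scaled reads in WT day 10 and at 15.87, 41.07 and 32.36 in G9a KO day 10. The groups did not overlap, but the log2 difference of -1.75 (SE 0.77) did not pass (limma adjusted p = 0.40). In G9a KO day 10 replicate 1 a single read is worth 3.97 scaled reads, so the level of Col16a1 there rests on few reads. Upward, the largest were 2.50 (SE 1.61) for Col3a1, 1.47 (SE 1.02) for Col1a2 and 1.42 (SE 1.37) for Col1a1, with limma adjusted p of 0.55, 0.59 and 0.69. The 4 genes Col2a1, Col16a1, Col25a1 and Col28a1 had all 3 G9a KO day 10 libraries below all 3 of WT, where 12.6% of all genes did, and none had all 3 above, where 5.54% did. Over the family the median difference at day 10 was -0.51 with 8 of 44 above 0, against -0.26 over all genes, and without WT day 10 replicate 3 it was -0.34 with 14 above 0, against -0.08.

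Genes that make, cut, bind and degrade collagen were counted by list, beside the 2.02% of all genes that rose and 2.40% that fell in WT and the 2.43% and 6.46% in G9a KO. Of 17 measured modifying enzymes and chaperones, 1 rose and 1 fell in WT and 2 rose and 1 fell in G9a KO. Serpinh1, the collagen chaperone HSP47, rose from 692.9 to 1874 scaled reads in WT (log2 change 1.42, limma adjusted p = 0.020) and from 532.4 to 1994 in G9a KO (1.82, limma adjusted p = 0.0067), as group means. Fkbp14, a prolyl isomerase of the endoplasmic reticulum, fell in WT (-1.92, limma adjusted p = 0.036). Of 13 procollagen proteases and crosslinking enzymes 0 rose and 3 fell in WT, namely Pcolce2 (-3.27), Pcolce (-2.44), both enhancers of procollagen cleavage, and Adamts14 (-1.88), a procollagen N-proteinase (limma adjusted p = 0.0072, 0.016 and 0.019). In G9a KO 2 rose and 2 fell: Bmp1, the procollagen C-proteinase, by 2.19 and Loxl2 by 1.37 upward, and Pcolce2 and Lox, a lysyl oxidase, by -2.94 and -3.05. With replicate 1 of both day 0 groups left out, 3.95% of all genes rose and 6.80% fell in WT, and 4.47% and 13.3% in G9a KO. Then 1 enzyme or chaperone rose and 2 fell in WT, and 3 rose and 1 fell in G9a KO. Of the proteases and crosslinking enzymes, 1 then rose and 3 fell in WT and 2 rose and 2 fell in G9a KO.

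Among 18 measured other genes of the basement membrane, 3 rose and 1 fell in WT, where 2.02% of all genes rose and 2.40% fell. In G9a KO 3 rose and 2 fell, beside 2.43% and 6.46% of all genes. Pxdn, the peroxidasin that crosslinks type IV collagen, rose by 1.36 in WT and 1.44 in G9a KO (limma adjusted p = 0.014 and 0.013), and Agrn, which encodes agrin, rose by 1.00 and 0.86 (limma adjusted p = 0.032 and 0.044). Lama1, a laminin chain of the early embryo, fell by 1.76 and 1.58 on the log2 scale (limma adjusted p = 0.012 and 0.023). Of 10 collagen receptors, Ddr1, a receptor tyrosine kinase, was the gene that rose, by 2.06 in WT and 2.19 in G9a KO (limma adjusted p = 0.0013 and 0.0014), and none fell. Of 10 degrading enzymes and inhibitors 0 rose and 1 fell in WT, Timp1, an inhibitor of collagenases (-3.08, limma adjusted p = 6.4e-04). In G9a KO 2 rose, Mmp2 and Mmp9 (1.92 and 2.99), and Timp1 fell (-2.01). When replicate 1 of both day 0 groups was left out, 5 of the basement membrane genes rose and 2 fell in each line. Of all genes 3.95% then rose and 6.80% fell in WT, and 4.47% and 13.3% in G9a KO. Then 2 receptors rose in WT and 1 in G9a KO, and none fell. Of the degrading enzymes and inhibitors 0 then rose and 1 fell in WT, and 3 rose and 1 fell in G9a KO. None of these genes passed the test between the lines at either day over all 12 libraries.

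Allele counts separated the family in 2. Of the 44 genes, 27 lie in stretches where nearly all reads of genes within 2 Mb were mus, and 17 in stretches with both alleles, the border being set at 80% mus after the data were seen. The 17 had a pooled mus share of 36.5% at day 10 and the 27 a share of 99.3%, so alleles can be compared only in the 17. At day 10, 12 collagen genes had at least 10 allelic reads in every library and all 12 differed between alleles (edgeR adjusted p under 0.05), 5 toward mus and 7 toward cas. All genes were called in 75.6% of 7666 cases, and in the stretches with both alleles in 29.7% of 2589, where 8 of 8 collagen genes were called. For collagen genes outside those stretches, where nearly all reads were mus, a call toward mus was all but fixed in advance, at either day. The test is against equal alleles, and genes within 2 Mb of 5 of these 8, Col1a2, Col4a1, Col4a2, Col4a5 and Col4a6, were themselves at 21.8% to 34.1% mus, while those of Col1a1, Col5a1 and Col12a1 were at 48.3% to 51.8%. At day 0, 12 of 17 were called, against 75.6% of 8653 genes, and 2 of 7 in the stretches with both alleles, Col4a1 toward cas and Col5a1 toward mus, against 30.0% of 2940. Leaving out replicate 1 of both day 0 groups, 16 of 19 were called, against 78.7% of 9692 genes, and 5 of 8 in the stretches with both alleles, against 38.9% of 3304. No collagen gene differed in allele ratio between the lines at either day, where 0.0913% of all genes at day 10 and 0% at day 0 were called, with 356 and 247 genes at an unadjusted p under 0.05. None did at day 0 without those 2 libraries either, where 0.124% of all genes were called.

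Col1a1 was read mostly from the mus allele at day 0 and mostly from the cas allele at day 10. In WT day 0 replicate 1, 146 of 148 allelic reads were mus (98.7%, 95% Wilson interval 95.2% to 99.6%). In G9a KO day 0 replicate 1 the share was 94.6% of 37 reads, in WT day 0 replicate 3 it was 91.4% of 35, and in G9a KO day 0 replicates 2 and 3 it was 87.5% of 56 and 91.3% of 46. WT day 0 replicate 2 had only 2 reads. At day 10 the share was 43.3%, 41.1% and 37.3% in WT and 36.8%, 31.6% and 39.7% in G9a KO, and no day 10 library reached any of day 0. Genes within 2 Mb were at 52.0% at day 0 and 51.6% at day 10, and the edgeR log2 ratio of mus to cas for Col1a1 at day 10 was -0.70 (adjusted p = 0.0017). Pooled without replicate 1 of both day 0 groups, the Col1a1 share fell by 52.1 percentage points from day 0 to day 10, and 3 of 2704 autosomal genes with both alleles nearby and at least 100 allelic reads on each day, Col1a1 among them, moved as far. Col12a1 fell by 22.4 points, as far as 41 of these genes did. Both genes were singled out after their values were seen. The day 0 libraries other than replicate 1 held 47.82 to 91.86 scaled reads of Col1a1, and 7.68 to 10.72 summed over the 4 Y-linked markers. Those markers were at 0 in all WT day 10 libraries and at 2.70 to 19.83 in G9a KO day 10. The part of fibroblast RNA in the mus reads of Col1a1 at day 0 was not tested.

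In 4 more genes WT day 0 replicate 1 was shifted toward mus. Col5a1 was at 90.1% of 243 reads in WT day 0 replicate 1 and 73.9% of 153 in G9a KO day 0 replicate 1, against 56.4% to 64.9% in the other day 0 libraries and 48.9% to 62.9% at day 10. Col1a2 was at 81.6% of 125 reads, against 37.5% of 80 in WT day 0 replicate 3. Col4a1 was at 59.4% of 128 reads, against 28.3% and 23.8% in WT day 0 replicates 2 and 3, and Col4a2 at 68.7% of 131, against 38.2% and 31.6%. Genes within 2 Mb of Col4a1 and Col4a2 were at 32.2% and 32.9% at day 0. The fibroblast markers with both alleles nearby, 4 of the 16, moved alike, at 70.4% of 81 reads in WT day 0 replicate 1 and 59.5% of 74 in G9a KO day 0 replicate 1 against 34.6% to 46.7% in the other day 0 libraries. At day 10 these markers were at 45.6% to 70.8%, the highest share being of 24 reads in G9a KO day 10 replicate 1. All genes with both alleles nearby were at 49.9% to 52.3% in the day 0 libraries.

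At day 10 the type IV genes of chromosome 8 stayed near their neighbours, while those of the X chromosome moved to cas with theirs. Col4a1 and Col4a2 had pooled mus shares of 32.1% and 32.6% at day 10, against 34.0% and 34.1% for genes within 2 Mb. Col4a5 went from 43.2% at day 0 to 17.3% at day 10 and Col4a6 from 49.1% to 17.1%, with neighbours at 43.3% and 44.9% at day 0 and 21.9% and 21.8% at day 10. WT day 10 replicate 3, the library with background reads, had the highest day 10 shares, 33.3% of 75 reads for Col4a5 and 27.0% of 126 for Col4a6. In G9a KO day 10, Col4a5 had 0 mus reads of 11, 3 of 28 and 0 of 24. Genes within 2 Mb of it were at 31.0%, 22.7% and 22.5% mus in these libraries, so Col4a5 lay below its neighbours there. Intervals cover counting error only.

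**Figure D5:**
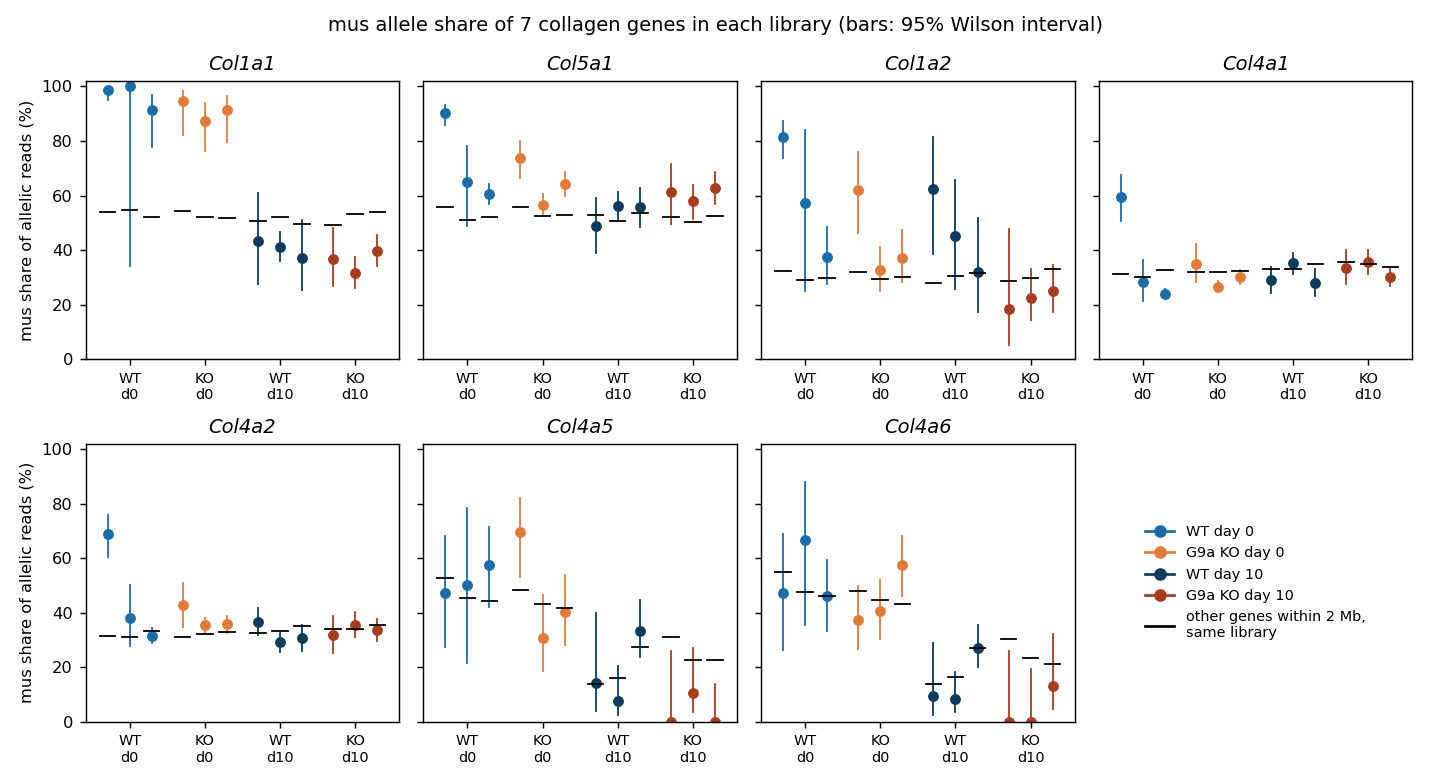
Share of allelic reads from the mus allele (%) for 7 collagen genes in each of the 12 libraries, with 95% Wilson intervals as bars, and the share of other genes within 2 Mb in the same library as black lines. Col1a1 lies at 87.5% or higher in all day 0 libraries and at 31.6% to 43.3% at day 10.

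H3K9ac marks active promoters, and its peak lists hold 1 sample a group, so they describe those samples and no test was made. The WT and G9a KO samples carry different replicate numbers in their titles, so line and replicate number cannot be told apart in these lists. The WT day 0 sample carries the number of the WT day 0 RNA library high in fibroblast genes, and the G9a KO day 0 sample does not. Whether numbers match cultures is not known. A peak lay within 1 kb of the start of 14 of 44 collagen genes in WT day 0 (31.8%, against 49.7% of all genes), 4 in G9a KO day 0 (9.09% against 40.0%), 10 in WT day 10 (22.7% against 50.8%) and 14 in G9a KO day 10 (31.8% against 52.1%). The starts of Col4a1 and Col4a2, which share 1 peak, and those of Col5a1 and Col18a1 had a peak in all 4 lists. These are the 4 genes of over 100 kb with the most reads. The fold enrichment at the shared Col4a1 and Col4a2 start, in the authors' values, was 2.57 and 2.72 at day 0 in WT and G9a KO and 3.35 and 3.02 at day 10, and that at Col5a1 was 2.75, 2.85, 4.31 and 3.99 in the same order. Col1a1 had a peak in both day 10 lists (2.38 in WT and 3.45 in G9a KO) and in neither day 0 list, and Col1a2 in the G9a KO day 10 list alone (2.65). Peaks were counted whatever their q. The highest -log10 q at a collagen start was 0.874 in WT day 0 (Col16a1) and 0.537 in G9a KO day 0 (Col4a1 and Col4a2). No day 0 peak at a collagen start thus had a q under 0.05. At day 10 the highest was that of Col5a1, at 3.07 in WT and 2.57 in G9a KO. No peak at a collagen start reached 5 on this scale, which peaks did at 0.275% and 1.60% of all gene starts in WT and G9a KO at day 0 and at 9.64% and 10.6% at day 10.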

How the data were processed

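RNA was measured in 12 libraries, 3 for each of 4 groups, and groups were taken from the sample titles. Per the submitters' processing notes, TopHat, HOMER and genome build mm9 were used for RNA, and Novoalign and MACS2 for the chromatin samples; versions are not given in the sources used here. The authors' deposited gene values are a signal, reads scaled to 1 total per library; whole reads were recovered from the step of each library (all 24016 values whole within 0.02 of a read, or all but 1, in each library). The deposited allele values are counts of mus and cas reads. The authors' peak lists give a fold ratio and −log10 p and q per peak, called per sample.

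Genes above 1 in at least 3 libraries were tested with limma 3.58.1 (trend, robust) on log2(scaled reads + 1) over all 12 libraries, with Benjamini-Hochberg adjustment over all genes and a threshold of 0.05. A fold change on this scale understates that of low genes. edgeR 4.0.16 and DESeq2 1.42.0 were run on the recovered reads as alternatives, and edgeR's quasi-likelihood test on mus against cas counts of genes with at least 10 allelic reads in each library. Python 3.11.15 computed shares and intervals. Simulated data were made like WT day 10 against day 0, with 1 dispersion for all genes. At the common dispersion of these libraries, 0.228, limma recovered 5 of 100 genes changed 4-fold and edgeR 12 of 100. At 0.1 times that dispersion each recovered 100 of 100. Real genes differ in their spread, so these shares are not the share of real changes found. Exact permutation tests of 3 against 3 libraries cannot go below p = 0.1 and were not used for calls. Whether same-numbered replicates are paired was checked from their deviations (correlations -0.40 to 0.58), and they were not treated as pairs. All collagen genes were counted. Values in every library were given for Col4a1 to Col4a6, Col1a1, Col1a2, Col3a1, Col5a1, Col5a2, Col2a1 and those that passed limma's test over all 12 libraries. Those of Col6a1, Col7a1 and Col12a1 were given in the line where they passed another fit. For each list of related genes at most 4 passing members were named in each line, and not every passing member was named. The members and lists were chosen with earlier results of these data known. The 2 input samples whose labels disagree on the day were not assigned to a group and were not used; H3K9me2 was not analysed here. Enzyme and laminin names of the lists that the table does not hold were not analysed.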

Additional observations from a re-analysis of the deposited data

How the results depend on the processing

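Groups of 3 libraries limit precision, and so does depth, and which of them limits it more was not tested. In the 9 shallow libraries 1 read is worth 2.06 to 4.18 scaled reads, against 0.28 to 0.41 in the 3 deep ones. Values of a few scaled reads were therefore not resolved in the shallow libraries. The number of collagen genes called from day 0 to day 10 in WT was 3 (4.42% of all genes). It was 2 without the filter (3.72%) and 2 with only the 2 groups compared (1.93%). It was 9 without replicate 1 of both day 0 groups (10.7%), 7 in DESeq2 (12.9%), 10 in edgeR (16.8%) and 9 with relative log expression scaling (9.55%) without those 2 libraries. It was 5 without both libraries with background reads (10.7%) and 12 without all 3 libraries in doubt (15.3%), and 1 to 5 when 1 library was left out. In G9a KO the number was 4 (8.89%), and became 2 without the filter (3.93%), 10 with only the 2 groups compared (21.5%), 8 without replicate 1 of both day 0 groups (17.7%), 2 in edgeR (7.03%) and 8 in DESeq2 (21.2%). It became 11 without both libraries with background reads (27.1%), 14 without all 3 (36.0%), 9 in edgeR (22.5%) and 7 with relative log expression scaling (13.7%) without replicate 1 of both day 0 groups, 15 with depth as a term (13.9%). It was 0 to 13 when 1 library was left out, 13 without WT day 10 replicate 3 (22.2%) and 0 without G9a KO day 10 replicate 3 (0.967%). Between the lines 0 were called at day 10, and 1 in DESeq2 (3.16%), which also called 1 for the difference of the day 10 changes (0.497%); leaving out 1 library gave 0 in each. With the replicate number as a block the calls were 3 in WT and 6 in G9a KO, where Col9a2 then passed (log2 change -1.35, limma adjusted p = 0.0493), and the numbers are shared labels and not known pairs. Directions turned for Col6a1 in WT (-1.04 in DESeq2, -1.15 in edgeR, -0.22 to 3.99 when 1 library was left out), for Col4a5 and Col7a1 in G9a KO with depth as a term (-0.41 and -0.15), and for Col4a2 between the lines at day 10 (-0.30 to 0.14 when 1 library was left out). Collagen genes called between alleles at day 10 were 12 of 12 tested (75.6% of all genes). They were 18 of 19 with a minimum of 5 reads (74.7%) and 5 of 5 with 20 (77.0%). Leaving out 1 library gave 10 to 13 of 12 or 13 tested (73.9% to 74.9%). At day 0 they were 12 of 17 (75.6%), 23 of 33 with a minimum of 5 reads (75.0%) and 5 of 7 with 20 (76.4%). Leaving out 1 library at day 0 gave 12 to 25 calls (72.0% to 76.0%), with 25 of 33 without WT day 0 replicate 2 (74.7%). The counts moved with the number tested. They include genes in stretches of nearly all mus reads, where a call toward mus was all but fixed in advance. In the stretches with both alleles, 8 of 8 collagen genes were called at day 10 (29.7% of all genes there) and 2 of 7 at day 0 (30.0%). A stricter peak threshold of 5 for −log10 q left 0 peaks at collagen starts in all 4 lists, from 14, 4, 10 and 14, where it left 0.275%, 1.60%, 9.64% and 10.6% of all genes with one. The alternatives on the libraries with background reads and on depth, and those that combine 2 choices, were chosen after seeing the data; the cause of each change was not tested.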

Other observations

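Col6a5, a type VI chain, leaned further toward cas than its neighbourhood in the undifferentiated libraries. Pooled over the 4 day 0 libraries other than replicate 1 of both groups, 105 of its allelic reads were mus and 502 cas (17.3% mus), while genes within 2 Mb were at 50.0%. The share was 9.93% of 141 reads in WT day 0 replicate 3 and 18.7% of 251 and 21.2% of 208 in G9a KO day 0 replicates 2 and 3, and it was 50.0% of 20 and 38.9% of 36 in replicate 1 of the WT and G9a KO day 0 groups. At day 10 it was 50.0% of 40 in WT day 10 replicate 3 and 0% to 44.4% of at most 35 reads in the other libraries. The gene was singled out after its values were seen, and its level was higher in all 3 G9a KO day 0 libraries than in all 3 of WT (182.69 to 249.07 against 62.63 to 106.10 scaled reads), which 5.50% of all genes tested showed, with a limma adjusted p of 0.99.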
